A study of Mus musculus with 2 samples.

Results

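The germline and meiosis genes are 40 genes named by symbol that act in germ cell formation, the piRNA pathway, the synaptonemal complex and meiotic recombination. A gene was measured when the platform annotation assigned at least 1 probeset to it alone. That held for 39 of the 40, out of 19938 genes measured on the arrays, and Rhox5, a homeobox gene of the reproductive tract, had no such probeset and was not analysed here. The genes were sorted by role into 7 genes of germ cell specification and meiotic entry, 14 of the piRNA pathway, 8 of the synaptonemal complex and chromosome axis, 6 of meiotic cohesin and recombination, and 5 others.

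The study used i-OSKM-ESC, mouse embryonic stem cells of strain 129 made from the KH2 line, in which doxycycline switches on c-Myc, Klf4, Oct4 and a Sox2 that carries an epitope tag. Cells on gelatin-coated plastic received 4 µg/mL doxycycline, or fresh medium without it, and RNA was taken 24 hours later for 1 whole-transcript array per condition. The cells of both arrays carry the same transgenes and differ by the drug and by what it induces. They also differ by culture and by array, which cannot be told apart from the drug with 1 array per condition. The sources used here do not say whether the line is a single clone, and KH2 cells given the drug were not analysed here. With 1 array per condition there is no replicate error, so no difference below has a test, and every direction rests on the labels of the arrays.

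Germ cells arise in the embryo from pluripotent cells, and many genes of the later germline are kept repressed in somatic and embryonic cells by promoter DNA methylation and by a Polycomb complex that holds the DNA-binding proteins E2F6, MGA and MAX. Mouse embryonic stem cells nevertheless transcribe a part of the germline programme at low level. The piRNA pathway makes small RNAs that silence transposons in germ cells. The synaptonemal complex joins homologous chromosomes during meiotic prophase, while breaks made in the DNA are repaired by recombination.

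MGA with MAX binds the E-box, whose letters are CACGTG, and E2F6 binds sites that hold the core GCGGGA. Both motifs were searched on both strands in the 250 bases before each transcription start of the RefSeq promoter table (build GRCm38.p6). The first motif reads the same on both strands. The table held 43 windows for 34 of the 40 genes, some of them overlapping windows of 1 gene, and had no entry for Dnd1, Piwil2, Spo11, Tdrd6, Tex11 and Tex15. In all, 6 windows are printed 5′ to 3′ with the matches to both motifs in capitals, which do not overlap. Mael (chr1:166238745-166238994, minus strand), Hormad1 (chr3:95559427-95559676, plus strand), Sycp3 (chr10:88459337-88459586, plus strand) and Ddx4 (chr13:112652311-112652560, minus strand) are shown because they hold both motifs. Dazl (chr17:50293621-50293870, minus strand) is shown because it had the most negative difference and holds neither, and Tdrd9 (chr12:111971309-111971558, plus strand) because it holds 2 E-boxes and was higher with doxycycline.
Mael: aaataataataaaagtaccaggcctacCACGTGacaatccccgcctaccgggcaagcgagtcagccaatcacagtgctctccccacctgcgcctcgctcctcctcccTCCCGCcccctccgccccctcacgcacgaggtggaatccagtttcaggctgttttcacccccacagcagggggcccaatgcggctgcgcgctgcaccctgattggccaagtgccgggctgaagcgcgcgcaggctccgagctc
Hormad1: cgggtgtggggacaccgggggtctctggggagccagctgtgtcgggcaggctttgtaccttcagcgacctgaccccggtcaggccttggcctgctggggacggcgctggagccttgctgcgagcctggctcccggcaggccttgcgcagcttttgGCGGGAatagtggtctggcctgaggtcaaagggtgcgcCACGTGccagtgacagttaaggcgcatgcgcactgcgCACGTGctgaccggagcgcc
Sycp3: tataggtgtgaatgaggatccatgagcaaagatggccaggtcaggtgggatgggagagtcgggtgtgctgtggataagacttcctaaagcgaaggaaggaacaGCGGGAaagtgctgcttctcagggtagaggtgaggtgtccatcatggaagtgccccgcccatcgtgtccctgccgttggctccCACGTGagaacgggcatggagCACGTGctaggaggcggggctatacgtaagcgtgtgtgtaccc
Ddx4: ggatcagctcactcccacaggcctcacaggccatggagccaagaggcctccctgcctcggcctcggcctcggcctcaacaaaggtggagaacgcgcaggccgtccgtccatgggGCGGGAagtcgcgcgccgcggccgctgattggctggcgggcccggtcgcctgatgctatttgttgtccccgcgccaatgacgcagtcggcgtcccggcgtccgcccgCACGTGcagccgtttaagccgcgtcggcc
Dazl: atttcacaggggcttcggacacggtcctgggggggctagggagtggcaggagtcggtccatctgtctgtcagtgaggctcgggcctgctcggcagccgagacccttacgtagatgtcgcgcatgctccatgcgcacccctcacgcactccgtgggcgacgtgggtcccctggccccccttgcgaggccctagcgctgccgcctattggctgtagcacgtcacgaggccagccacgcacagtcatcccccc
Tdrd9: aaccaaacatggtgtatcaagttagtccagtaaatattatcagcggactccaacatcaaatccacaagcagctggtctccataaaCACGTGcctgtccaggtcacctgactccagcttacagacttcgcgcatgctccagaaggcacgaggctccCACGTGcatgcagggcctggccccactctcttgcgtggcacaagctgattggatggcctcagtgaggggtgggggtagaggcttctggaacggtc
The E-boxes of Sycp3 begin 64 and 43 bases before the start and those of Hormad1 57 and 20 bases before it. In Ddx4 the E-box begins 29 bases before the start and in Mael 223 bases before it.

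The genes as a set lay slightly lower in the array with doxycycline. They were chosen with earlier results of these data known, so the values of the set describe this list and are no independent result. The median log2 difference, plus minus no doxycycline, was -0.14 over the 39 measured genes, beside 0.01 over all 19938 genes. A difference below 0 was found for 24 of the 39, which is 61.5%, against 48.3% of all measured genes. The differences ran from -0.88 for Dazl to 0.82 for Tdrd6. The median was -0.05 when an offset of 32 was added on the linear scale, which damps the differences of dim probesets.

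Genes were then counted by size alone, at 1.5-fold or 2-fold, among those with a level of at least 6.48 on at least 1 array, which is the table's median. Of the 39 genes, 22 reached that level. Dazl, Mael, Tex11, Hormad1 and Tdrd5 were at least 1.5-fold lower, and 0 were at least 1.5-fold higher. Dazl, Tex11 and Hormad1 reached 6.48 only on the array without doxycycline, so the level rule admitted them through the array where they were high, and it left out Tdrd6, which was 1.77-fold higher at a lower level. For Hormad1 this holds for the mean of its 2 probesets. Its brighter probeset, at 8.16 without and 7.67 with doxycycline, reached 6.48 on both arrays and differed by -0.49. Over all 11191 genes reaching that level, 3.80% were at least 1.5-fold lower and 3.24% at least 1.5-fold higher. On both arrays 18 of the 39 genes reached 6.48, and of these Mael and Tdrd5 were at least 1.5-fold lower and 0 were as much higher, beside 3.26% and 2.50% of 10339 genes. A difference below 0 was found for 12 of the 18, against 57.0% of those 10339, and for 16 of the 22, against 55.5% of the 11191. The count of 5 was 4 with quantile normalization, with the loess trend removed and by the brightest probeset, 3 with the offset of 32, and 0 when the level had to reach 8.25, the 75th percentile of the table. No germline or meiosis gene was 2-fold lower or higher, beside 0.768% and 0.920% of those 11191 genes. The 17 other measured genes stayed below 6.48 on both arrays, where the table has no detection call to tell a low level from background.

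The size of a difference was also set against genes of like brightness, by its percentile among the genes of the same 1 of 20 bins of mean level. The robust SD, the scaled median absolute deviation of the differences, was between 0.161 and 0.297 in these bins, and the median difference of a bin ran from -0.09 to 0.11. Such a spread mixes noise with any response to the drug and is no error between cultures. In the lowest 5% of their bins lay 6 of the 39 genes, and 1 lay in the highest 5%. The 6 were Dazl, Mael, Tex11, Hormad1 (by the mean of its 2 probesets), Stra8 and Tdrd5, and the 1 was Tdrd6.

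**Figure D1:**
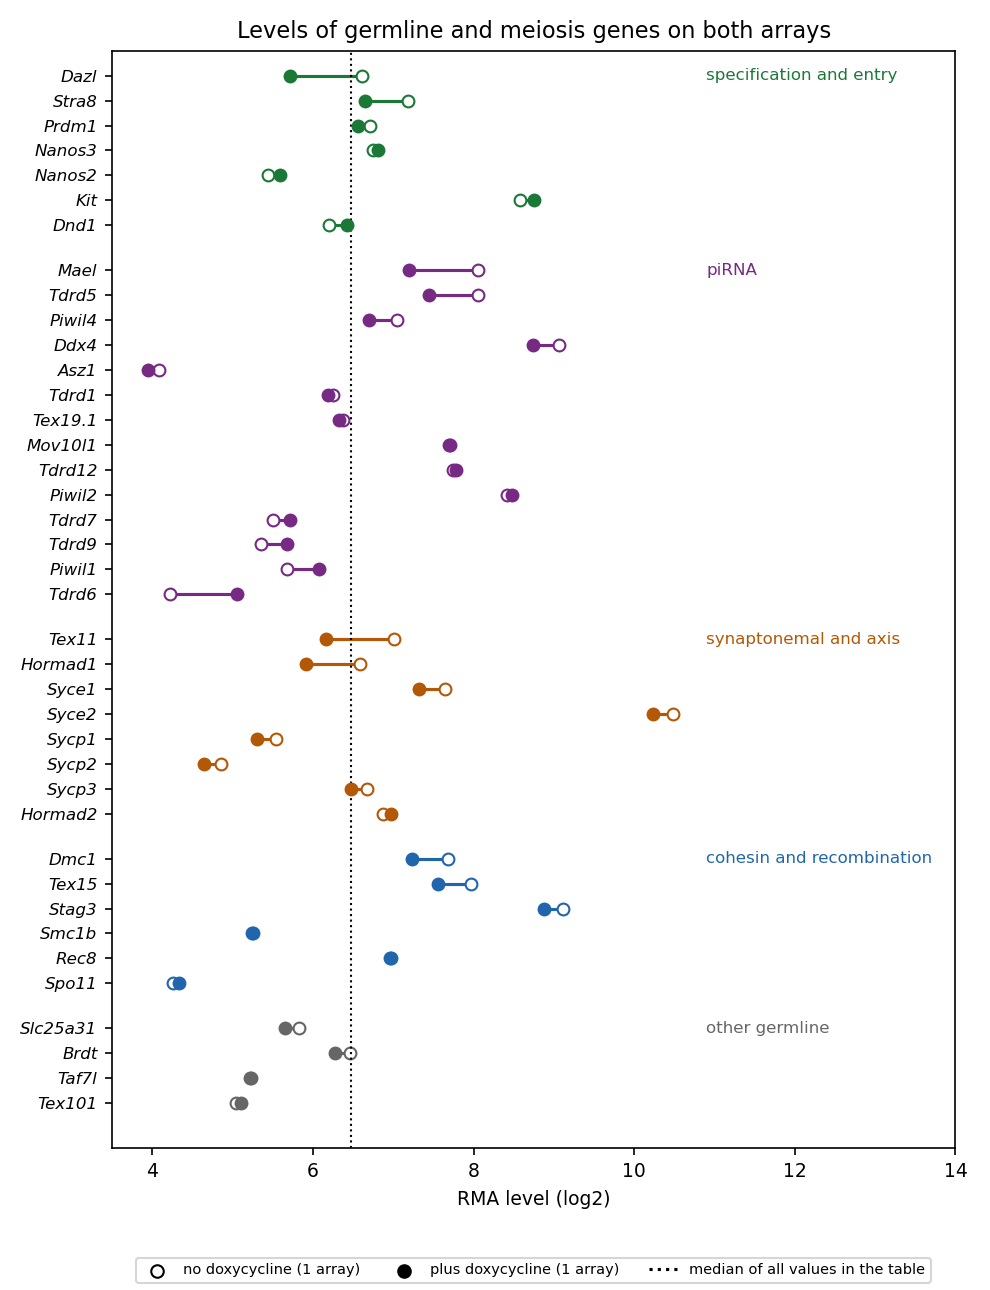
RMA level (log2) of the 39 measured germline and meiosis genes on both arrays, by role; open points are the array without doxycycline, filled points the array with it, and the dotted line is the median of the table (6.48). The filled point lies left of the open one for Dazl, Mael, Tex11, Hormad1 and Tdrd5 by the widest gaps, and right of it for Tdrd6.

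Among the genes of germ cell specification and meiotic entry, a pair stood lower and the others were close on both arrays. Dazl, an RNA-binding protein that licenses germ cells to enter gametogenesis, had a level of 6.61 without and 5.72 with doxycycline. It was 1.84-fold lower, at percentile 1.2 of its bin. Its level with doxycycline was under the table median, and with the offset of 32 the difference was -0.61. Stra8, which is induced by retinoic acid and starts meiosis, had 7.18 without and 6.65 with doxycycline, a 1.44-fold lower level at percentile 4.11.

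Prdm1, Kit and Nanos3 had smaller differences. Prdm1, the transcriptional repressor that specifies primordial germ cells, had 6.71 without and 6.56 with doxycycline. Kit, the receptor tyrosine kinase needed for germ cell survival and migration, had 8.58 and 8.75. Nanos3, an RNA-binding protein that protects primordial germ cells, had 6.75 and 6.81. These 3 differed by -0.15, 0.17 and 0.06 on the log2 scale and lay at percentiles 23.0, 85.3 and 55.3 of their bins. Nanos2, which acts in male germ cells, and Dnd1, an RNA-binding partner of the NANOS proteins, had differences of 0.15 and 0.22 below the level filter. The median of the 7 genes was 0.06, with 3 lower (42.9%, beside 48.3% of all measured genes) and 4 higher. It was -0.15 over the 5 genes that reached the table median, one of them Dazl through the array where it was high, and -0.04 over the 4 that reached it on both arrays.

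The piRNA genes were split. Mael, a protein of the germ granules where piRNAs are made, had 8.06 without and 7.20 with doxycycline, 1.82-fold lower at percentile 1.3 of its bin. Tdrd5, a Tudor domain protein needed for germ granule assembly, had 8.05 and 7.44, 1.52-fold lower at percentile 4.41. Both levels of these 2 genes lay above the table median. Piwil4, the nuclear PIWI protein MIWI2 that directs DNA methylation of transposons, had 7.05 and 6.70. Ddx4, the RNA helicase of germ granules known as mouse VASA, had 9.07 and 8.74. With differences of -0.35 and -0.33, these lay at percentiles 10.7 and 12.7.

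Another 3 piRNA genes had nearly the same level on both arrays. Piwil2, the PIWI protein MILI that takes part in the first piRNA cycle, had 8.42 without and 8.48 with doxycycline. Tdrd12 had 7.75 and 7.78, and Mov10l1, the helicase that feeds precursor RNA into the pathway, had 7.71 and 7.69. Their differences were 0.06, 0.03 and -0.01, and that of Mov10l1 changed sign with quantile normalization and with the trend removed by loess. The 2 PIWI genes that reached the table median therefore differed by 0.06 and -0.35, and whether they differ from each other beyond error was not testable with 1 array each.

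The higher piRNA genes all lay below the level filter apart from Piwil2 and Tdrd12. Tdrd6, a Tudor protein of the chromatoid body of spermatids, had 4.22 without and 5.05 with doxycycline, 1.77-fold higher at percentile 99.9 of its bin. With the offset of 32 its difference was 0.36 in place of 0.82. Piwil1, the PIWI protein MIWI of later spermatogenesis, had 5.68 and 6.08, Tdrd9, a helicase with a Tudor domain, 5.36 and 5.68, and Tdrd7 5.50 and 5.72. Asz1 (4.08 and 3.95), Tdrd1 (6.25 and 6.19) and Tex19.1 (6.38 and 6.33) were dim as well and differed by at most 0.14 in size. The median of the 14 piRNA genes was -0.03, with 8 lower (57.1%, beside 48.3% of all measured genes) and 6 higher. It was -0.33 over the 7 genes that reached the table median, a subset picked by level.

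**Figure D2:**
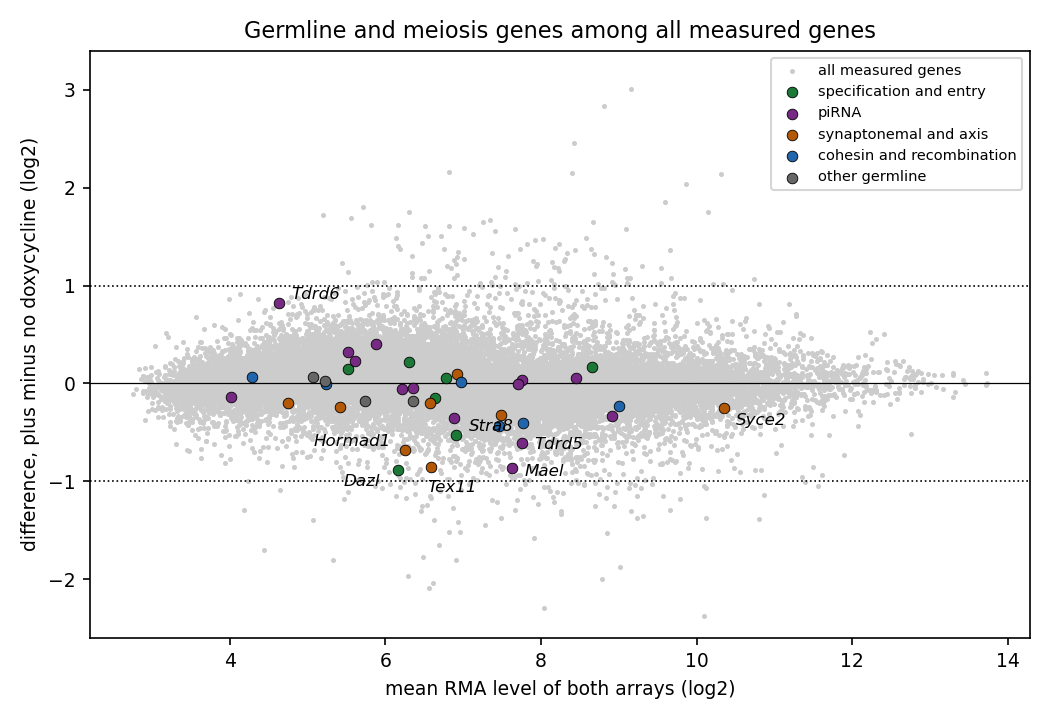
Log2 difference, plus minus no doxycycline, against the mean level of both arrays for 19938 genes (grey) and the 39 germline and meiosis genes (coloured by role); dotted lines mark 2-fold. No coloured point lies beyond 2-fold, and Dazl, Mael and Tex11 lie between -0.85 and -0.88.

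The synaptonemal and axis genes were mostly lower with doxycycline. The difference was below 0 for 7 of the 8, and the median was -0.24, where 48.3% of all genes had a difference below 0. The median lay between -0.28 and -0.20 over the alternatives tried, some of which could change only Hormad1 or none of these genes. The -0.28 was over the 6 genes that reached 6.48, some of them only through the array without doxycycline. On both arrays 3 of the 8 reached it, with a median of -0.25. Of these 3, 2 were lower, beside 57.0% of the 10339 genes at that level on both arrays. Tex11, an X-linked gene that promotes crossovers, had 7.01 without and 6.16 with doxycycline, 1.81-fold lower at percentile 1.81 of its bin. Hormad1, an axis protein that keeps unpaired chromosomes under surveillance, had mean levels of 6.59 and 5.91 from 2 probesets, the only gene here with more than 1. Whether both probesets lie in Hormad1 was not checked. The brighter probeset had 8.16 without and 7.67 with doxycycline and the dimmer one 5.01 and 4.15, so both were lower, by differences of -0.49 and -0.86. By the brighter probeset alone Hormad1 reached 6.48 on both arrays and was not 1.5-fold lower, a threshold of 0.585 on the log2 scale. With the offset of 32 the mean difference of the gene was -0.40. For scale, paired probesets of 492 genes at the level filter scattered around their gene's difference with an SD of 0.167.

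The structural parts of the synaptonemal complex had differences close to one another. Sycp1, which forms the transverse filaments, had 5.54 without and 5.30 with doxycycline. Of the lateral element genes, Sycp3 had 6.68 and 6.48, and Sycp2 had 4.85 and 4.65. Of the central element genes, Syce1 had 7.64 and 7.32, and Syce2 had 10.48 and 10.23. These 5 differences lay between -0.32 and -0.20 and at percentiles 10.2 to 17.7 of their bins, so none stood at the edge of genes of like brightness. Sycp1 and Sycp2 were below the level filter. Hormad2, the partner of Hormad1 on unpaired axes, had 6.87 without and 6.97 with doxycycline and was the 1 gene of this role that was higher.

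Of the cohesin and recombination genes, 4 were lower (66.7%, beside 48.3% of all measured genes) and 2 higher, with a median of -0.12. Dmc1, the meiosis-specific recombinase that carries out strand exchange, had 7.68 without and 7.24 with doxycycline. Tex15, which acts in recombination and in transposon silencing, had 7.97 and 7.56. Stag3, a meiotic cohesin subunit, had 9.11 and 8.88. These 3 genes were 1.36-fold, 1.32-fold and 1.18-fold lower, at percentiles 9.33, 12.3 and 21.8. The cohesin subunit genes Rec8 (6.96 without and 6.97 with doxycycline) and Smc1b (5.25 and 5.24) had the same level to within 0.01. Spo11, whose product makes the meiotic DNA breaks, lay below the level filter at 4.26 and 4.33. Without Dmc1, the most different gene, the median of this role was -0.01, and it was -0.32 over the 4 genes at the level filter.

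The remaining genes lay below the level filter on both arrays. Brdt, a bromodomain protein of spermatocytes and spermatids, had 6.46 without and 6.27 with doxycycline, and Slc25a31, the germline adenine nucleotide carrier, had 5.83 and 5.65. Taf7l, a germ cell form of a general transcription factor subunit, had 5.22 and 5.23. Tex101, a surface protein of germ cells, had 5.04 and 5.11. These differences were at most 0.18 in size, and the 0.02 of Taf7l changed sign with quantile normalization and with the loess trend removed.

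**Figure D3:**
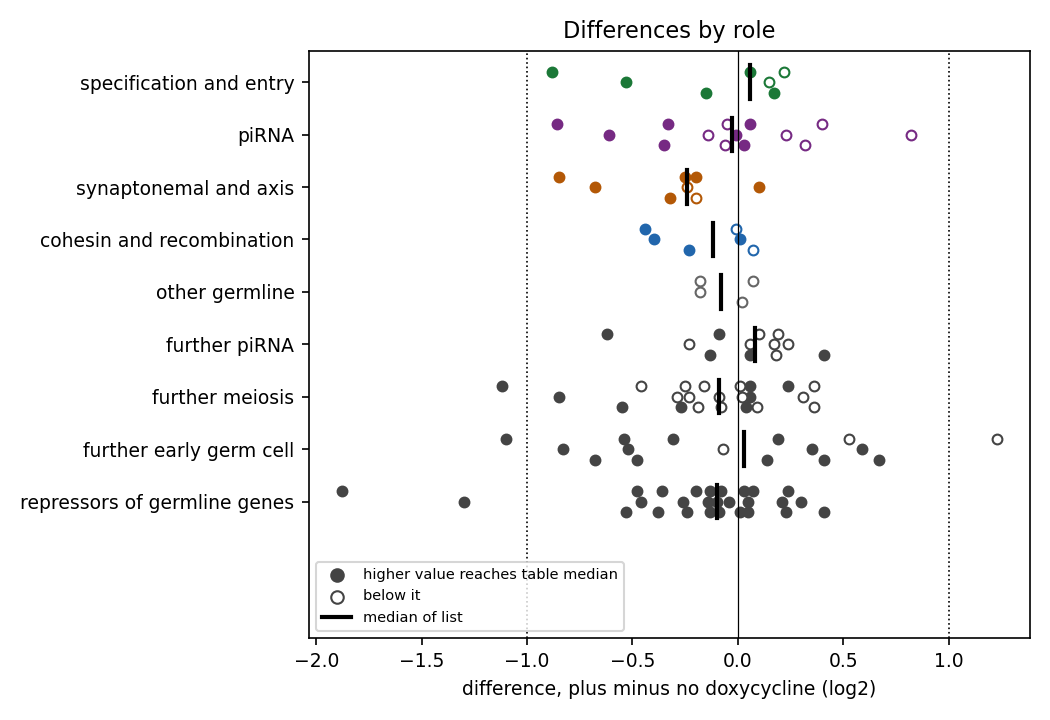
Log2 difference, plus minus no doxycycline, of each measured gene by role (coloured) and of further lists (dark grey); filled points reach the table median on at least 1 array, black bars are list medians and dotted lines mark 2-fold. In the synaptonemal and axis row 7 of 8 points lie left of 0, and the 2 points past 2-fold on the left in the lowest row are Dnmt3a and Dnmt3l.

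The E-box was frequent in the promoters of these genes. It was found in 16 of their 43 windows (37.2%), beside 6.02% of all 32851 windows of the table. The windows were also rich in CpG dinucleotides, with a median of 15 against 6 in all windows, and the E-box itself holds a CpG. Among windows with at least 15 CpG, 12 of 22 held the E-box (54.5%), beside 9.81% of 8970. The E2F core GCGGGA was found in 14 of 43 windows (32.6%) against 16.9% of all. Among windows with at least 15 CpG that gap was small, 45.5% against 42.8%. These shares describe letters in a window and not binding.

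Differences were then listed by promoter class for the 33 measured genes with a window. Mael, Hormad1, Ddx4, Syce2 and Sycp3, whose promoters held both motifs, all had a difference below 0, from -0.86 to -0.20 with a median of -0.33. Over all 453 measured genes with both motifs, 55.4% were lower and the median was -0.03. The 9 genes with the E-box alone were mixed. Sycp1, Stag3, Brdt, Slc25a31, Tdrd1 and Mov10l1 had differences between -0.24 and -0.01, Taf7l had 0.02, and Tdrd9 and Piwil1, each with 2 E-boxes, had 0.32 and 0.40. The 6 genes with the E2F core alone had a median of -0.03, from -0.61 for Tdrd5 to 0.17 for Kit. The 13 genes with neither motif had a median of -0.14 and included Dazl and Stra8. Genes with a lower level were thus found in every class.

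For the induced factors, the octamer ATGCAAAT, bound by Oct4, was in 0 of the 43 windows and in 1.60% of all windows. The Sox core CATTGT was in 3 windows, those of Nanos3, Rec8 and Stra8 (6.98%, beside 10.7% of all). The Klf-type box GGGTGTGG was in 4, those of Hormad1, Piwil1, Stra8 and Tdrd7 (9.30%, beside 3.20% of all). Both strands were searched. Among windows with at least 15 CpG, the octamer and the Sox core were each in 0 of 22, beside 0.925% and 3.79% of 8970. The Klf-type box was in 3 of these 22 windows (13.6%), beside 3.18% of the 8970. Among the 6 genes with a Sox or Klf match, Hormad1 was 1.60-fold lower by the mean of its 2 probesets, and Stra8 was 1.44-fold lower. Piwil1 and Tdrd7 were higher below the level filter, and Nanos3 and Rec8 were within 0.06 of 0.

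**Figure D4:**
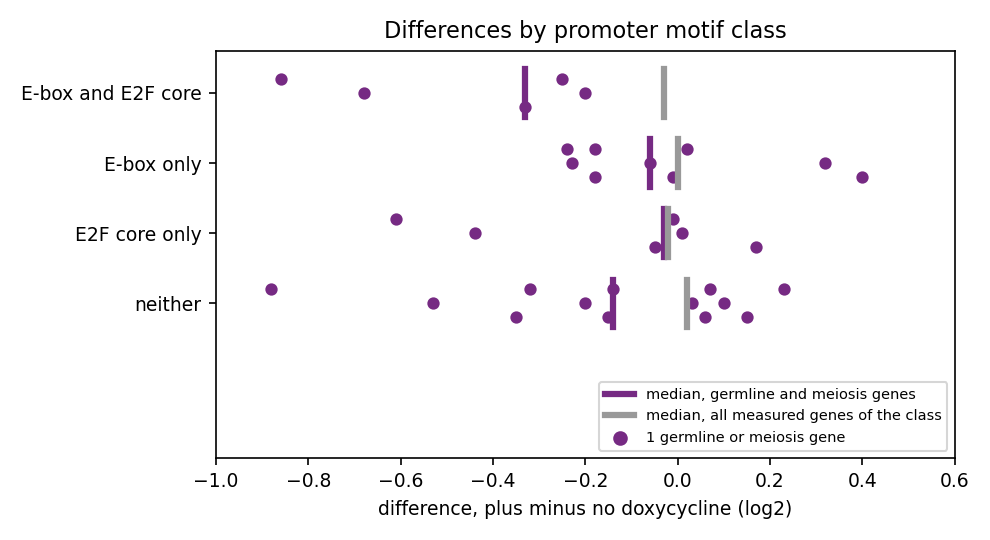
Log2 difference, plus minus no doxycycline, of the 33 measured germline and meiosis genes with a promoter window, by the motifs in the 250 bases before the start; bars are medians of these genes (purple) and of all measured genes of the class (grey). All 5 purple points with both motifs lie left of 0, and the most negative point, Dazl, has neither.

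Further genes were taken from lists drawn up for the same pathways, which do not hold these 40. Of 22 further meiosis genes measured, 12 were lower (54.5%, beside 48.3% of all measured genes) and 10 higher, with a median of -0.09. The level filter was reached by 8 of the 22. Of these 8, 2 were at least 1.5-fold lower, beside 3.80% of the 11191 genes that reached it. Meioc, which keeps germ cells in meiotic prophase, had 8.85 without and 7.72 with doxycycline, a 2.18-fold lower level at percentile 0.502 of its bin. Zcwpw1, a reader of the histone marks at recombination sites, had 7.77 and 6.93, or 1.80-fold lower. Psmc3ip, a cofactor of Dmc1, had -0.55 and Hsf2bp -0.27. Of the 12 genes measured from the further piRNA list, 4 were lower (33.3%, beside the same 48.3%) and 8 higher, with a median of 0.08. Whether each of these 12 acts in the piRNA pathway was not checked. Ddx25, a testis RNA helicase, was 1.53-fold lower, Mybl1, a transcription factor that drives piRNA precursors in spermatocytes, was 1.33-fold higher, and Rnf17 and Tdrd3 had -0.13 and -0.09.

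The 16 further early germ cell genes moved both ways, with 8 lower (50%, beside 48.3% of all measured genes), 8 higher and a median of 0.03. Dmrt1, a transcription factor of the gonad and germ cells, had 8.66 without and 7.56 with doxycycline, 2.15-fold lower at percentile 0.702. Tfap2c, which acts in primordial germ cell specification, was 1.78-fold lower and Sohlh2, a transcription factor of early germ cells, 1.61-fold lower, while Id4, a marker of spermatogonial stem cells, was 1.59-fold higher. Of the 13 genes of this list at the level filter, 3 were at least 1.5-fold lower and 2 at least 1.5-fold higher. Over all 11191 genes at the filter, 3.80% were as much lower and 3.24% as much higher. Sohlh1, named after its value was seen, had 5.97 without and 6.56 with doxycycline, a difference of 0.59 at percentile 97.3. Sohlh1 and Id4 reached the level filter only with doxycycline and Sohlh2 only without it. Prdm14, a specification regulator named after its value was seen, had 7.46 without and 6.92 with doxycycline, 1.45-fold lower at percentile 5.42. Kitl, the ligand of Kit, was named after its value was seen. It had 4.82 without and 6.06 with doxycycline, 2.35-fold higher at percentile 99.9, but lay below the level filter on both arrays, while Kit differed by 0.17.

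Genes that act in the repression of germline genes or transposons, with partners of their complexes, were all at the level filter on both arrays. Of the 27, 17 were lower (63%) and 10 higher, with a median of -0.10. Of all 10339 genes at that level on both arrays, 57.0% were lower. At least 2-fold lower were 2 of the 27, beside 0.768% of the 11191 genes at the level on at least 1 array. The 2 were the de novo DNA methyltransferase gene Dnmt3a (9.96 without and 8.08 with doxycycline) and its cofactor gene Dnmt3l (9.80 and 8.50). Trim28, a corepressor of transposons, and Zmym2 had -0.53 and -0.48. The genes of the proteins that read the printed motifs, named for that reason, had -0.13 for Max, -0.20 for Mga and 0.24 for E2f6. Dnmt1, the maintenance methyltransferase gene, and Uhrf1, its recruiter, had -0.09 and 0.01. Dnmt3a and Dnmt3l were not the only other genes lower on the array with doxycycline. Of 10 embryonic stem cell markers, 7 were lower and 3 higher, with a median difference of -0.44. A link between any of these values and the lower germline genes was not tested.

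The label of the cells was checked on marker genes. All 10 embryonic stem cell markers reached the level filter on both arrays, with a mean log2 level of 11.48 without and 11.11 with doxycycline and a median difference of -0.44. Of the 10 spermatid markers, 0 reached it on both arrays, nor did any of the 9 oocyte markers, and 3 of 9 testis somatic markers did. Of the feeder fibroblast markers, 6 of 10 reached it. Over all 10 the mean was 6.85 without and 6.96 with doxycycline, and the median difference was 0.25, with 4 lower and 6 higher. Among those that reached it, Col3a1, Vim and Fn1 were lower and Col1a1, Col1a2 and Thy1 higher. The part of feeder fibroblast markers in the germline differences was not tested. The 4 induced factors had differences of 0.41 for Pou5f1 (Oct4), 0.43 for Klf4, 0.35 for Myc and -1.01 for Sox2, so that Sox2 goes against the label if its probes read the transgene.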

How the data were processed

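Total RNA of 1 culture per condition was labelled with biotin and hybridised to 1 whole-transcript array each. The deposited values are log2 levels made by the authors with RMA in Affymetrix Expression Console, per the submitters' processing notes, 1 per probeset and array (35556 probesets). The software version and genome build were not given in the sources used here. RMA equalises the arrays and compresses dim differences. The number of arrays limits the precision.

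The platform annotation assigned 21789 probesets to 1 gene, 1621 to several and left 12146 unlisted. A gene's value was the mean of its own probesets (19938 genes). Differences are plus minus no doxycycline, and fold is 2 to the power of their size. The level filter was the table median (6.48). All measured members were named. Of each further list, the 4 genes with the largest differences at the level filter were named. Members and lists were chosen with earlier results of these data known. Promoter windows came from RefSeq (GRCm38.p6), matched by gene identifier. Alternatives were quantile normalization, a loess trend removed, an offset of 32 on the linear scale, other probeset summaries, other filters and leaving out the most different gene. The steps were tested on simulated data. Tables were computed with pandas 2.3.3 and NumPy 2.4.6 under Python 3.11.15, the loess trend with statsmodels 0.14.6 and the plots with matplotlib 3.10.9.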

Additional observations from a re-analysis of the deposited data

How the results depend on the processing

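Each value rests on 1 array per condition, so an alternative shows the effect of processing and not of another culture. Over all measured genes of the set, the median difference of -0.14 was -0.10 with quantile normalization, -0.05 with the offset of 32 on the linear scale, -0.28 over genes at the level filter, -0.24 over genes at it on both arrays and -0.10 without the most different gene. Over genes at the level filter, the median was -0.33 for the piRNA genes, -0.15 for the specification genes and -0.32 for the cohesin and recombination genes, and the last was -0.01 without its most different gene. With the level reached on both arrays, an alternative chosen after seeing the data, these medians were -0.33, -0.04 and -0.32, the count of lower genes was 12 in place of 24 and the count at least 1.5-fold lower was 2, where fewer genes enter. The latter was 3 with the offset and 0 with the filter at the 75th percentile of the table (8.25). The other 56 of 72 values under the alternatives differed from a count by no more than 1.5 times and from a median by less than the SD between paired probesets (0.167) divided by the square root of the number of genes. The cause of the other shifts was not tested. No germline or meiosis gene lies in a probeset of several genes, so including those probesets changed none of these values. The other probeset summaries could change only Hormad1, and stricter level filters could not raise the 2-fold count of 0. Part of the 56 values was thus fixed in advance. No paired analysis was possible because each condition has 1 array and no result comes from a test.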

Other observations

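Markers of mature gametes were dim on both arrays. All 9 oocyte markers had a positive difference, between 0.02 and 0.55 with a median of 0.24, and none reached the table median on either array. Of all 8747 genes below the table median on both arrays, 39.0% were lower and the median difference was 0.05. They included the egg coat gene Zp3 (5.28 without and 5.79 with doxycycline) and the growth factor gene Bmp15 (5.11 and 5.66), named after their values were seen. Of the 10 spermatid markers, 7 were higher and 3 lower, with a median of 0.10. The protamine gene Prm2, which packs sperm DNA, was the 1 spermatid marker to reach the table median, at 6.44 without and 6.66 with doxycycline.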
